A study of Mus musculus with 8 samples.

Results

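The genes described here set the timing of development: Lin28a, Lin28b, Igf2bp1, Igf2bp2, Igf2bp3, Hmga2 and Trim71. They were taken by symbol as a fixed list of 7 of the 24539 genes in the series' count table, and all 7 have a row, 6 with at least 1 count. Six2GFPcre, a transgene that drives a GFP and Cre fusion in nephron progenitors, was used to sort these cells from mouse kidneys at E18.5, and their polyadenylated RNA was sequenced. Every group carries this transgene. KO-labelled embryos were Smo c/c, with 2 conditional alleles of Smo, which carries the Hedgehog signal across the cell membrane. Het-labelled embryos were Smo c/+, with 1 conditional and 1 wild-type allele. WT-labelled embryos were Smo +/+. SmoM2-labelled embryos were Smo +/+ and also Rosa26 SmoM2/+, so that Cre turns on an active Smo from the Rosa26 locus. Each group has 2 libraries, 8 in all. The question is whether the level of these timing genes differs with the labelled dose of Smo.

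LIN28A and LIN28B are RNA-binding proteins that block the maturation of the let-7 microRNAs. The let-7 microRNAs in turn repress the mRNAs of Lin28a, Lin28b, Hmga2, Trim71 and the Igf2bp genes through sites in their 3′ untranslated regions. As let-7 builds up during development, cells move from an early to a late program. In the kidney this switch is known to bear on how long nephron progenitors last, and LIN28 is known to prolong nephrogenesis when it is kept on.

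The let-7 family is shown because its shared seed defines the sites that link the 7 genes. In the mature sequences of RefSeq (GRCm38.p6), written 5′ to 3′, capitals mark bases 2 to 8, the seed. The 4 members printed differ outside it and share the same seed.
let-7a-5p: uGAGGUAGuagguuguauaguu
let-7e-5p: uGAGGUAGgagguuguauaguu
let-7g-5p: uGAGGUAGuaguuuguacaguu
miR-98-5p: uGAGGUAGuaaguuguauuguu

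The match to this seed, CTACCTC, was searched on the transcript strand of the longest 3′ untranslated region that GENCODE M21 (GRCm38) gives for each gene. Each of the 7 genes held at least 1 match. Trim71, Igf2bp1, Hmga2 and Lin28b held 4 each, Lin28a held 2, and Igf2bp2 and Igf2bp3 held 1 each. All 4 matches in Trim71 and 3 of the 4 in Igf2bp1 were followed by an A, against 1 of 4 in Hmga2. The motif is common in regions this long. Among genes whose 3′ untranslated region was within 20% of the same length, at least 1 match was present in 12.1% for the length of Igf2bp2, 15.6% for that of Hmga2 and 33.8% for that of Igf2bp1. At least 4 were present in 0.0911% at the length of Hmga2, 0.161% at that of Lin28b, 0.181% at that of Igf2bp1 and 0.387% at that of Trim71. A match is a description of letters and not evidence of binding. One match for each gene, followed by an A, is printed here from the minus strand of GRCm38, with the match and the A in capitals.
Lin28a (chr4:134005184-134005211): gcacagcctgttgaaCTACCTCAttttt
Lin28b (chr10:45381017-45381044): acccgggcgggaagtCTACCTCAtgcaa
Igf2bp1 (chr11:95961773-95961800): gctgtgcgaagtaaaCTACCTCAaggtg
Igf2bp2 (chr16:22059468-22059495): acacacaaataaaagCTACCTCAggtgt
Igf2bp3 (chr6:49086782-49086809): tgcatttttactcaaCTACCTCAggtat
Hmga2 (chr10:120364219-120364246): gccgacattcaatttCTACCTCAgcatc
Trim71 (chr9:114512467-114512494): aacattgcctaagtcCTACCTCAgctta

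The libraries held between 4422305 and 10305398 listed counts, the KO-labelled ones being the shallowest. Smo, which checks the labels, ran from 11.1 to 23.9 CPM (counts scaled to a common library size) over the 4 libraries labelled KO or Het and from 363 to 629 CPM over the other 4. The Het-labelled level lies near the KO-labelled one, which goes against a label of 1 wild-type allele, so groups are named by their labels and every direction drawn from the Het-labelled libraries carries this doubt. Xist and Y-linked counts gave a male pattern in both KO-labelled libraries, a female one in both Het-labelled libraries and 1 of each in the WT- and SmoM2-labelled groups. Nephron progenitor markers were present in every library, with summed levels of 6257 to 6643 CPM for 12 genes in the Het-labelled libraries and 4460 to 5613 CPM in the others, against 5.77 to 46.3 CPM for 10 ureteric genes. The 10 stromal genes summed to 92.3 and 624 CPM in the 2 KO-labelled libraries, which thus differed widely. Their sums were 147 to 322 CPM (Het), 331 to 498 CPM (WT) and 543 to 670 CPM (SmoM2). Whether a library came from 1 embryo or a pool is not given in the labels, so p-values measure the spread between these libraries.

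The LIN28 genes, at the top of the pathway, were absent or nearly so. Lin28a (chr4:134003330-134018841, minus strand) had 0 counts in all 8 libraries. Over the 61041364 counts of the 8 libraries together, a count of 0 allows up to 3 counts, or 0.0493 CPM. Lin28b (chr10:45376620-45486395, minus strand) had 1 count in Het-labelled replicate 1, 1 in WT-labelled replicate 2, 1 in SmoM2-labelled replicate 1 and 0 in the other 5 libraries. These 3 counts correspond to 0.0493 CPM over all libraries, with an exact Poisson 95% interval of 0.0102 to 0.144 CPM that covers counting error only. No group had more than 1 Lin28b count, so neither gene could be compared between groups. The limit in single libraries, taken as 3 counts, ran from 0.280 CPM in WT-labelled replicate 1 to 0.664 CPM in KO-labelled replicate 1, so a lower level in any 1 library could not be seen.

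In contrast to Lin28a and Lin28b, the other 5 genes were well above this limit and passed the filter on low counts. Per kilobase of the table's gene length, averaged over the 8 libraries, Igf2bp2 was at 37.9 and Hmga2 at 35.8 CPM per kilobase, higher than 83.4% and 82.3% of the 13459 tested genes. Igf2bp1 stood at 14.0, Igf2bp3 at 4.68 and Trim71 at 1.63 CPM per kilobase, higher than 58.6%, 32.5% and 16.5% of tested genes. The table's length for Trim71 is 5192 bases, while the union of its GENCODE M21 exons has 9332. The same pair was 3899 and 7402 bases for Igf2bp2, 3817 and 6772 for Hmga2, and 4347 and 8159 for Igf2bp3. For Igf2bp1 it was 8381 and 9682 bases. Levels per kilobase, and their ranks, therefore depend on which model is right. The order of these levels by gene was the same in the means of all 4 groups except for Hmga2 and Igf2bp2. In the KO- and SmoM2-labelled groups Hmga2 was slightly higher than Igf2bp2 per kilobase (34.2 against 32.8 and 35.8 against 35.1), and in the WT-labelled group they stood at 35.5 and 35.8, with SDs of up to 4.95.

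**Figure D1:**
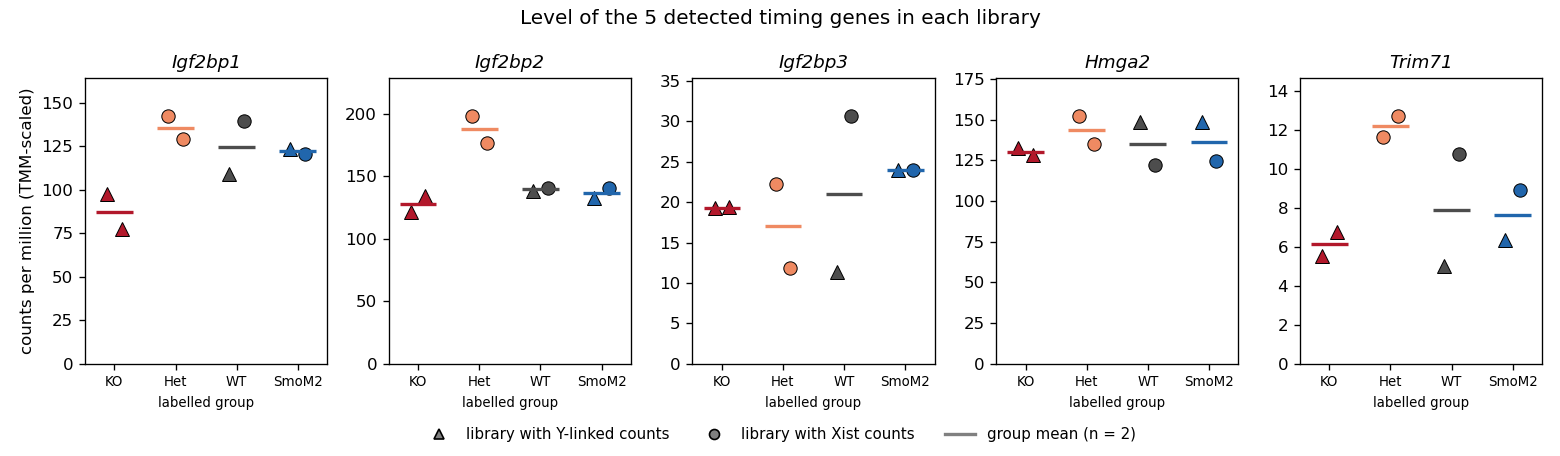
Level of Igf2bp1, Igf2bp2, Igf2bp3, Hmga2 and Trim71 in CPM of the TMM-scaled library (vertical axes from 0) in each library of the 4 labelled groups; triangles are libraries with Y-linked counts, circles libraries with Xist counts, and lines are means of 2 libraries. Igf2bp1 was lowest in both KO-labelled libraries (77.5 and 97.6 CPM), Igf2bp2 was highest in both Het-labelled libraries (176 and 199 CPM), and the 4 circles of Trim71 lie above its 4 triangles.

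IGF2BP1 binds mRNAs, among them those of Igf2, Myc and Actb, and protects or places them in the cytoplasm. Its gene lies at chr11:95957163-96005940 on the minus strand. The level of Igf2bp1 by label was 97.6 and 77.5 CPM (KO), 143 and 129 CPM (Het), 109 and 140 CPM (WT) and 123 and 121 CPM (SmoM2). Both KO-labelled libraries lay below all 6 others, and the other 3 groups overlapped, except that the Het-labelled libraries lay just above the SmoM2-labelled ones. Ordered by mean, the groups were KO at 87.6 ± 14.2 CPM (SD, n = 2), SmoM2 at 122 ± 1.79, WT at 124 ± 21.5 and Het at 136 ± 9.67 CPM, and no difference among the last 3 was called. Igf2bp1 fell in KO- against WT-labelled libraries by 0.51 on the log2 scale (SE 0.16, edgeR adjusted p 0.0363), which is 0.704 of the WT-labelled level (95% interval 0.556 to 0.891). It was also lower than in the Het-labelled libraries (log2 change -0.64, SE 0.16, edgeR adjusted p 0.0299) and the SmoM2-labelled libraries (log2 change -0.48, SE 0.16, edgeR adjusted p 0.0350). These comparisons share the KO-labelled libraries and are not independent of each other.

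The fall of Igf2bp1 in the KO-labelled libraries moved with gene length and with single libraries. Igf2bp1 is the longest of the 7 in the table, at 8381 bases, and the trend of all genes over length, fitted per library, was lower by 0.40 (log2) at that length in KO- than in WT-labelled libraries. With this trend removed the KO- against WT-labelled change was -0.09 (edgeR adjusted p 0.735) and the KO- against SmoM2-labelled change was 0.0049 (edgeR adjusted p 0.987). The KO- against Het-labelled change was -0.41 (edgeR adjusted p 0.167). Without KO-labelled replicate 2 the change against WT-labelled libraries was -0.35 (edgeR adjusted p 0.182), and without WT-labelled replicate 2 it was -0.35 (edgeR adjusted p 0.188). With a stress or sex covariate it was -0.46 or -0.42 (edgeR adjusted p 0.154 and 0.0893). The KO- against Het-labelled change lost its call without KO-labelled replicate 2 or either Het-labelled library, at -0.73 to -0.49, and the KO- against SmoM2-labelled one without KO-labelled replicate 2 or either SmoM2-labelled library, at -0.54 to -0.33. Early nephron genes moved with this group too: their summed level for 12 genes was 1448 to 1795 CPM in the KO-labelled libraries and 515 to 836 CPM in the others. Of the 12, 10 were called higher in KO- than in WT-labelled libraries, where 11.6% of all tested genes were called higher. The part of these early nephron genes in the level of Igf2bp1 was not tested. In these mixed sorts, fewer cells that express a gene and less of its RNA per cell cannot be told apart.

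IGF2BP2, a paralog that binds a similar set of mRNAs and is known for its role in metabolism and muscle, is encoded at chr16:22059009-22163299 on the minus strand. The level of Igf2bp2 by label was 122 and 134 CPM (KO), 199 and 176 CPM (Het), 138 and 141 CPM (WT) and 133 and 141 CPM (SmoM2). The Het-labelled pair stood above all 6 other libraries, which lay between 122 and 141 CPM. Ordered by mean, the groups were KO at 128 ± 8.71 CPM (SD, n = 2), SmoM2 at 137 ± 5.76, WT at 140 ± 1.69 and Het at 187 ± 15.6 CPM. Against WT-labelled libraries the Het-labelled level was 1.34 times as high (95% interval 1.12 to 1.61), a log2 change of 0.43 (SE 0.12, edgeR adjusted p 0.0224). Against SmoM2-labelled libraries the change was 0.46 (SE 0.12, edgeR adjusted p 0.0126). KO- against Het-labelled libraries differed by -0.55 (SE 0.12, edgeR adjusted p 0.0203). Among the KO-, WT- and SmoM2-labelled groups no difference was called, and the KO- against WT-labelled interval ran from -0.39 to 0.14 on the log2 scale.

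For Igf2bp2, at the table's length of 3899 bases, the fitted length trend in Het- against WT-labelled libraries was -0.0093. Removing it at that length could hardly move the change. The trend was not taken at the 7402 bases of its GENCODE M21 exons, and it was -0.18 at the 8381 bases of Igf2bp1. Nephron progenitor markers were also highest in the Het-labelled libraries, with a summed level for 12 genes of 6257 to 6643 CPM, against 5121 to 5613 (KO), 4460 to 4746 (WT) and 4538 to 4553 CPM (SmoM2). Of these 12, 5 were called higher and 1 lower in Het- against WT-labelled libraries, against 13.1% higher and 12.2% lower over all tested genes. The part of these markers in the level of Igf2bp2 was not tested. Genes of dissociation stress were likewise highest in the Het-labelled libraries, with a summed level for 10 genes of 7967 and 7998 CPM, against 4043 to 5938 in the KO-labelled, 2870 to 3040 in the WT-labelled and 3290 to 4775 CPM in the SmoM2-labelled libraries. Their mean log2 CPM was 7.61 and 7.77 in the Het-labelled and 6.49 and 6.69 in the WT-labelled libraries. Stress and group therefore cannot be told apart between these libraries alone. With this mean as a covariate the Het- against WT-labelled change of Igf2bp2 was 0.29 (edgeR adjusted p 0.608). Leaving out Het-labelled replicate 1 gave 0.31 (edgeR adjusted p 0.229), and leaving out any other Het- or WT-labelled library gave 0.41 to 0.49 with edgeR adjusted p between 0.0698 and 0.0938. The KO- against Het-labelled change was -0.48 with the stress covariate and -0.50 with the sex covariate (edgeR adjusted p 0.177 and 0.0844), and lost its call without KO-labelled replicate 1 or either Het-labelled library (-0.65 to -0.47). The Het- against SmoM2-labelled change lost its call with the stress covariate (0.38, edgeR adjusted p 0.190) and without Het-labelled replicate 1 or either SmoM2-labelled library (0.33 to 0.46).

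IGF2BP3, the third paralog, is best known as an oncofetal protein and is encoded at chr6:49085223-49214957 on the minus strand. The level of Igf2bp3 by label was 19.3 and 19.4 CPM (KO), 22.2 and 11.9 CPM (Het), 11.4 and 30.7 CPM (WT) and 24.0 and 24.0 CPM (SmoM2). Here the spread was within groups: the WT-labelled libraries differed 2.70-fold and the Het-labelled ones 1.87-fold, while the lowest and highest group means were 17.0 and 24.0 CPM. No comparison called Igf2bp3, and edgeR adjusted p ran from 0.362 to 0.962. The KO- against WT-labelled change was -0.11 with an interval of -0.98 to 0.75, which holds levels from 0.506 to 1.69 times the WT-labelled one. Its sign depended on the WT-labelled library, with 0.73 without WT-labelled replicate 2 and -0.67 without WT-labelled replicate 1. Exons of Igf2bp3 overlap those of Malsu1 on the opposite strand by 1529 bases in GENCODE M21, and the strand setting of the counting is not given in the sources used here, so counts of Igf2bp3 are uncertain. Malsu1 lay between 8.66 and 17.0 CPM and was at 11.4 and 11.2 CPM in the 2 WT-labelled libraries, where Igf2bp3 differed most.

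HMGA2, a chromatin protein that bends DNA and keeps fetal stem cells young, is encoded at chr10:120361275-120476469 on the minus strand. The level of Hmga2 by label was 133 and 128 CPM (KO), 153 and 135 CPM (Het), 149 and 122 CPM (WT) and 149 and 124 CPM (SmoM2). Group means lay between 130 ± 3.42 and 144 ± 12.1 CPM (SD, n = 2), and the highest and lowest libraries differed by 0.32 on the log2 scale. The groups overlapped in each comparison but that of KO- with Het-labelled libraries. Of the 5 genes Hmga2 differed least between groups: its changes ran from -0.14 to 0.09 on the log2 scale, with edgeR adjusted p of 0.556 or more. The interval of the KO- against WT-labelled change, -0.36 to 0.26, holds changes between 0.777 and 1.19 times the WT-labelled level.

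TRIM71, a ubiquitin ligase and RNA-binding protein of early embryos that is an old partner of let-7 in the timing of development, is encoded at chr9:114507133-114564369 on the minus strand. Trim71 had between 25 and 99 counts in a library. Its level by label was 5.54 and 6.75 CPM (KO), 11.6 and 12.7 CPM (Het), 5.03 and 10.8 CPM (WT) and 6.34 and 8.90 CPM (SmoM2). Both Het-labelled libraries lay above all 6 others. By mean the order was KO at 6.14 ± 0.858 CPM (SD, n = 2), SmoM2 at 7.62 ± 1.81, WT at 7.91 ± 4.07 and Het at 12.2 ± 0.784 CPM. Its KO- against Het-labelled change of -0.98 (SE 0.37, 95% interval -1.80 to -0.17) was the largest of any of the 5 genes, and it did not pass the threshold (edgeR adjusted p 0.115, unadjusted p 0.0225). It did pass with no filter on low counts (edgeR adjusted p 0.0184), a setting that gave many other genes far smaller p-values too. Ccnd1, another let-7 target, went from an edgeR adjusted p of 0.00718 to 1.24e-77 there at nearly the same change. Trim71 also passed without WT-labelled replicate 1 or 2. Without WT-labelled replicate 2 the Het- against WT-labelled change, 0.63 in all libraries (edgeR adjusted p 0.193), was 1.25 (edgeR adjusted p 0.0304).

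The level of Trim71 split by the Xist and Y-linked counts, from which the sex of the embryos was read. Across groups, the 4 libraries with Xist counts were at 8.90 to 12.7 CPM and the 4 with Y-linked counts at 5.03 to 6.75 CPM, with no overlap. Within the WT-labelled group the library with Xist was at 10.8 and the other at 5.03 CPM, and in the SmoM2-labelled group they were at 8.90 and 6.34 CPM. With sex as a covariate, which the WT- and SmoM2-labelled libraries make possible, the KO- against Het-labelled change of Trim71 was -0.19 (edgeR adjusted p 0.796). With the stress covariate it was -0.28 (edgeR adjusted p 0.793). Both KO-labelled libraries were male in pattern and both Het-labelled ones female, so sex and group cannot be told apart between these libraries alone. In the WT- and SmoM2-labelled groups sex rests on 1 library of each kind, and the male one is replicate 1 in both. The cause of the split was not tested. Igf2bp2 also had no overlap by Y-linked and Xist counts, with 122 to 138 CPM and 141 to 199 CPM. With the sex covariate its Het- against WT-labelled change was 0.40 (edgeR adjusted p 0.0411), and its KO- against Het-labelled change lost its call. The part of sex in the level of Igf2bp2 was not tested. Igf2bp1 overlapped narrowly, with 77.5 to 123 CPM and 121 to 143 CPM, and Igf2bp3 and Hmga2 overlapped. The share of all tested genes with no overlap by these counts was not computed, so the splits cannot be set against it.

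**Figure D2:**
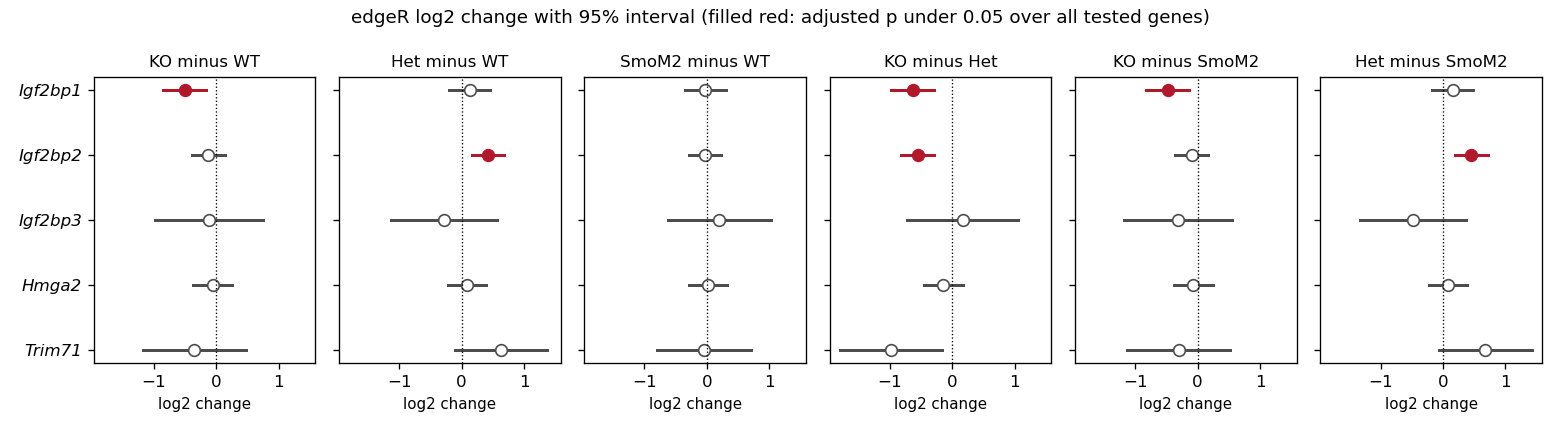
Log2 change (horizontal axes) of the 5 detected genes in the 6 comparisons of labelled groups by edgeR, with 95% intervals; filled red marks an adjusted p under 0.05 over 13459 tested genes. Igf2bp1 is marked in the 3 comparisons with KO-labelled libraries, Igf2bp2 in the 3 with Het-labelled libraries, and nothing is marked between SmoM2- and WT-labelled libraries.

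Read as counts, 1 of the 5 tested genes was called lower in KO- against WT-labelled libraries, where 23% of all tested genes were called and 11.4% called lower, and the libraries of 2 did not overlap, against 62% of all genes. In Het- against WT-labelled libraries 1 of 5 was called higher, with 25.3% of all tested genes called and 13.1% called higher, and 2 did not overlap, against 66.9%. KO- against Het-labelled libraries had 2 of 5 called lower, against 9.43% called of all genes, 5.1% lower and 4.33% higher, and 4 did not overlap, against 56.9%. KO- against SmoM2-labelled libraries had 1 called lower, with 32.5% of all genes called and 16% called lower, and 2 did not overlap, against 67.1%. Het- against SmoM2-labelled libraries had 1 called higher, with 33.7% called, 16.9% higher and 16.7% lower, and 4 did not overlap, against 70.9%. In SmoM2- against WT-labelled libraries edgeR called 0 of the 5, DESeq2 called 0, and 0 had an unadjusted p under 0.05, with 0.223% of all tested genes called, 0.156% higher and 0.0669% lower. The libraries did not overlap for 0 of the 5 there, against 35.8% of all genes. The lowest unadjusted edgeR p was 0.602, and the intervals for Igf2bp1, Igf2bp2 and Hmga2 held no change beyond 0.36 on the log2 scale. Those of Igf2bp3 (-0.62 to 1.02) and Trim71 (-0.79 to 0.70) were wider. Over the 4 groups together edgeR called Igf2bp1 (adjusted p 0.0300) and Igf2bp2 (adjusted p 0.0116), with 41% of all tested genes called. Shares this close to those of all genes in the comparisons with WT- and SmoM2-labelled libraries single out nothing about the list. The median change of the 5 was -0.12 in KO- against WT-labelled, 0.13 in Het- against WT-labelled and -0.55 in KO- against Het-labelled libraries, against 0.03, -0.02 and 0.02 over all tested genes.

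**Figure D3:**
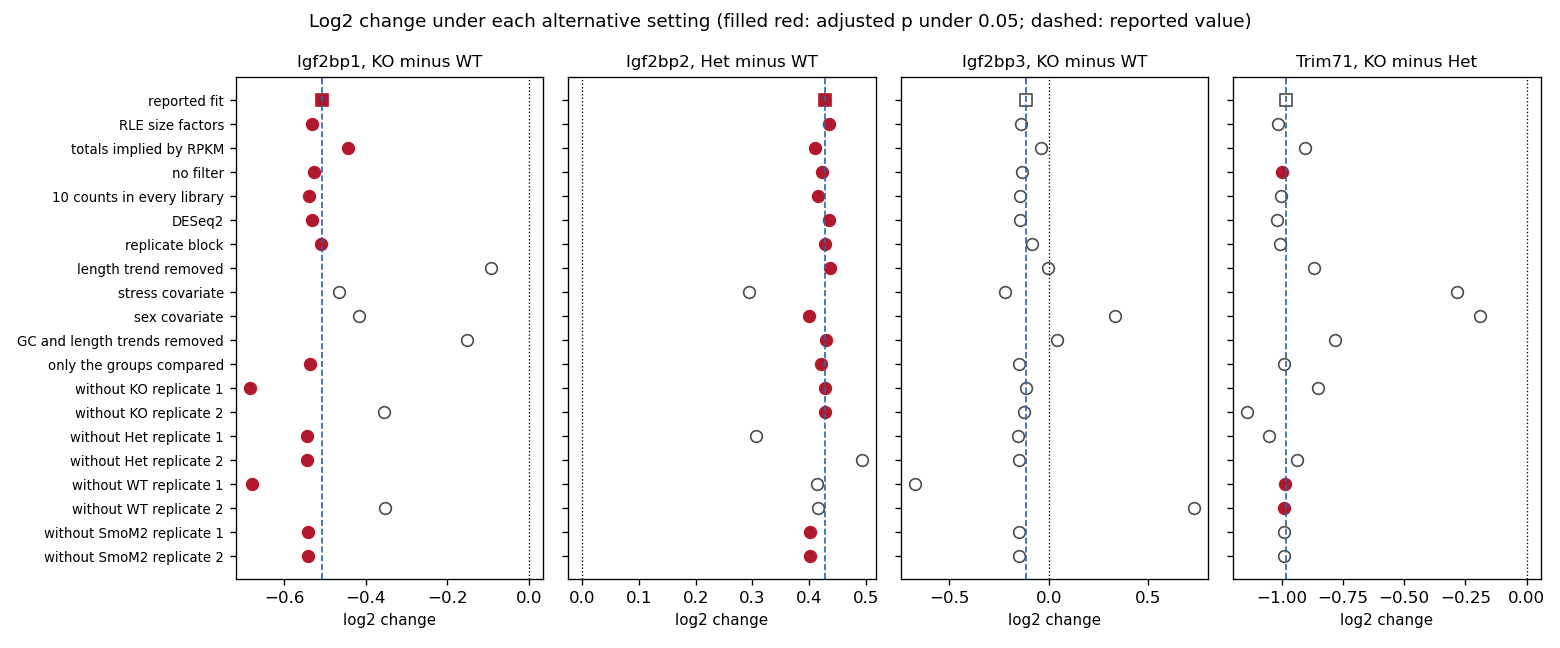
Log2 change (horizontal axes) under the reported fit (square) and each alternative (circles) for Igf2bp1 and Igf2bp3 in KO- minus WT-labelled, Igf2bp2 in Het- minus WT-labelled and Trim71 in KO- minus Het-labelled libraries; filled red marks an adjusted p under 0.05 and the dashed line the reported value. Igf2bp1 moves to -0.09 with the length trend removed, Igf2bp3 runs from -0.67 to 0.73 with 1 WT-labelled library left out, and Trim71 moves to -0.19 with sex as a covariate.

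The genes with the closest pattern were sought by the mean absolute difference of centred log2 CPM over the 8 libraries, among genes with an average log2 CPM of at least 3. Among the 3 genes nearest to Igf2bp1 were Khsrp (mean difference 0.06) and Zdhhc2 (0.06). Igf2bp2 was closest to Raver1 (0.03), Ranbp9 (0.04) and Gm38431 (0.04). Hmga2 was closest to Sap130, Kif3c and Lrrc41, each with 0.05. Trim71 was closest to Gnao1 (0.07), Kdm5c (0.13) and Cd44 (0.17). Kdm5c, an X-linked gene known to escape X inactivation, was at 264 to 388 CPM in the 4 libraries with Xist counts and at 166 to 225 CPM in the other 4. Igf2bp3 had no gene nearer than 0.19, the value for Actn3, followed by Atp6v0c-ps2 (0.21) and Apoo (0.22).

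The let-7 microRNAs themselves are not measured by sequencing of polyadenylated RNA. The table has 12 rows for let-7 and miR-98 hairpins, which held 8 counts in all libraries together. Of the genes that mature let-7 or work with LIN28, all 14 listed were tested, and every one that passed the threshold was lower in the KO- or Het-labelled libraries. In KO- against WT-labelled libraries 5 of 14 fell and 0 rose, where 23% of all tested genes were called and 11.4% were lower, and the list median was -0.34 against 0.03 over all genes. The count of 5 was 1 with the length trend removed, 1 without KO-labelled replicate 1, 2 without WT-labelled replicate 1 and 3 without KO-labelled replicate 2. Ago2, which carries microRNAs to their targets, changed by -0.78 (SE 0.21, edgeR adjusted p 0.0229). Dicer1, which cuts the hairpin to the mature form, changed by -0.61 (SE 0.12, edgeR adjusted p 0.00518). Zcchc11, the enzyme that adds uridines to let-7 precursors bound by LIN28A, changed by -0.55 (SE 0.14, edgeR adjusted p 0.0161). With the length trend removed Ago2 was at -0.40 (edgeR adjusted p 0.165), as against -0.45 without KO-labelled replicate 1 (edgeR adjusted p 0.150), and Zcchc11 at -0.30 (edgeR adjusted p 0.118), and with GC and length trends removed Dicer1 was at -0.14 (edgeR adjusted p 0.429). Zcchc11 was at -0.39 without KO-labelled replicate 1 (edgeR adjusted p 0.109), and neither Ago2 nor Zcchc11 was called without WT-labelled replicate 1 (edgeR adjusted p 0.0642 and 0.0686).

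In Het- against WT-labelled libraries 4 of these 14 genes fell and 0 rose, where 25.3% of all tested genes were called and 12.2% were lower. The list joins genes that mature let-7 with partners of LIN28, which blocks that maturation, so a shared fall has no single meaning for let-7. That count was 2 without Het-labelled replicate 1 or WT-labelled replicate 1 and 0 without Het-labelled replicate 2. Dgcr8, the partner of Drosha in the first cut, changed by -0.67 (SE 0.15, edgeR adjusted p 0.00771). Hnrnpa1, which binds let-7 precursors, changed by -0.66 (SE 0.12, edgeR adjusted p 0.00381). Without Het-labelled replicate 2 these were at -0.69 and -0.60 (edgeR adjusted p 0.0528 and 0.0525). With the stress covariate none of the 14 was called in either comparison. KO- against Het-labelled libraries, with 5.1% of all tested genes lower, had 2 lower, Ago2 (-0.98, SE 0.21, edgeR adjusted p 0.0200) and Khsrp, a factor that promotes let-7 maturation (-0.59, SE 0.13, edgeR adjusted p 0.0203). Neither was called without Het-labelled replicate 1 (edgeR adjusted p 0.149 for each). SmoM2- against WT-labelled libraries had 0 called, with only 0.223% of all tested genes called, and a median of -0.01.

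Other let-7 targets moved in both directions. Of 21, all tested, 6 rose and 5 fell in KO- against WT-labelled libraries, with a median of 0.12, where 11.6% of all tested genes were higher and 11.4% lower. The 11 calls were 4 without KO-labelled replicate 1, 7 without WT-labelled replicate 1 or 2 and 5 with the stress covariate. The largest changes were in Ccnd1, a cyclin of the G1 phase, which was higher by 1.99 (SE 0.45, edgeR adjusted p 0.0106), in Ccnd2, its paralog, higher by 1.14 (SE 0.31, edgeR adjusted p 0.0241), and in Igf1r. Ccnd1 ran from 1.25 with the stress covariate, where it was not called (edgeR adjusted p 0.0918), to 2.92 without WT-labelled replicate 2, and its WT-labelled libraries were at 52.7 and 153 CPM. Without WT-labelled replicate 1 Ccnd2 was at 0.62 (edgeR adjusted p 0.0672), and without KO-labelled replicate 1 or 2 its edgeR adjusted p was 0.0987 or 0.0810. Ccnd1 also stands in the early nephron list. In Het- against WT-labelled libraries 4 rose and 2 fell, with 13.1% of all tested genes higher and 12.2% lower. These 6 calls were 0 with the stress covariate, 2 without Het-labelled replicate 1 and 3 without Het-labelled replicate 2 or WT-labelled replicate 2. Arid3b, a DNA-binding factor, was higher by 1.36 (SE 0.27, edgeR adjusted p 0.00504) and by 1.56 with the stress covariate, where it was not called (edgeR adjusted p 0.225). KO- against Het-labelled libraries had 1 higher, Ccnd1, and 3 lower, with 4.33% of all tested genes higher and 5.1% lower. Without Het-labelled replicate 1 none of the 21 was called there, and Ccnd1 had an edgeR adjusted p of 0.0805. SmoM2- against WT-labelled libraries had 0 called, with only 0.223% of all tested genes called.

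The insulin-like growth factor system holds both the best known client of the IGF2BP proteins, Igf2, and the receptor through which it signals. The level of Igf2 by label was 1526 and 1343 CPM (KO), 1012 and 1382 CPM (Het), 1255 and 2364 CPM (WT) and 2043 and 2571 CPM (SmoM2). The WT-labelled pair spanned much of the range of all groups, and the KO- against WT-labelled change of -0.34 did not pass the threshold (edgeR adjusted p 0.359, interval -0.89 to 0.22). Its sign turned on 1 library: the change was -0.73 without WT-labelled replicate 1, where it was called (edgeR adjusted p 0.0258), and 0.16 without WT-labelled replicate 2 (edgeR adjusted p 0.628). It was 0.04 with the sex covariate (edgeR adjusted p 0.899). It was called with no filter on low counts (-0.36, edgeR adjusted p 0.0400), where many other genes also had far smaller p-values. Igf2 was lower in Het- than in SmoM2-labelled libraries by a log2 change of -0.95 (SE 0.25, edgeR adjusted p 0.0144), which was -0.78 without Het-labelled replicate 1 (edgeR adjusted p 0.0990). H19 is the noncoding RNA of the same imprinted locus. Its level by label was 3325 and 3261 CPM (KO), 1673 and 2151 CPM (Het), 2659 and 4036 CPM (WT) and 3484 and 4411 CPM (SmoM2). Both Het-labelled libraries lay below all others, and H19 changed there by -0.81 against WT-labelled libraries (SE 0.20, edgeR adjusted p 0.0132). Without WT-labelled replicate 2 this change was -0.50 (edgeR adjusted p 0.0714), and without Het-labelled replicate 1 it was -0.67 (edgeR adjusted p 0.103).

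Igf1r, the receptor for both insulin-like growth factors, was the clearest gene of this system. Its level by label was 182 and 175 CPM (KO), 323 and 339 CPM (Het), 381 and 469 CPM (WT) and 494 and 414 CPM (SmoM2). The KO-labelled pair lay far below the rest and the Het-labelled pair between them and the other groups. In KO- against WT-labelled libraries Igf1r changed by -1.25 (SE 0.14, edgeR adjusted p 0.000292), and it passed the threshold in all 19 alternatives, between -1.40 and -0.70. The smallest of these came with the length trend removed, which at the 11978 bases of Igf1r was -0.54. Insr, the insulin receptor, changed by -0.98 (SE 0.13, edgeR adjusted p 0.000711) and by -0.51 with GC and length trends removed (edgeR adjusted p 0.0227). Igfbp4, a secreted binding protein, changed by -0.75 (SE 0.20, edgeR adjusted p 0.0196), and by -0.42 without WT-labelled replicate 2 (edgeR adjusted p 0.119). It also lost its call without KO-labelled replicate 1 or 2 (edgeR adjusted p 0.104 and 0.0721). In all, 4 of 12 genes of the system fell and 0 rose in this comparison, where 23% of all tested genes were called and 11.4% were lower, and 2 were called without KO-labelled replicate 1 or WT-labelled replicate 2. KO- against Het-labelled libraries had 3 lower and 1 higher, with 9.43% of all tested genes called. The lower ones were Igf1r (-0.89, SE 0.14, edgeR adjusted p 0.00714), Insr and Irs2, an adaptor of both receptors (-0.98, SE 0.16, edgeR adjusted p 0.00737). H19 was the higher one (0.78, SE 0.20, edgeR adjusted p 0.0329). Without Het-labelled replicate 1 none of the 12 was called there.

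**Figure D4:**
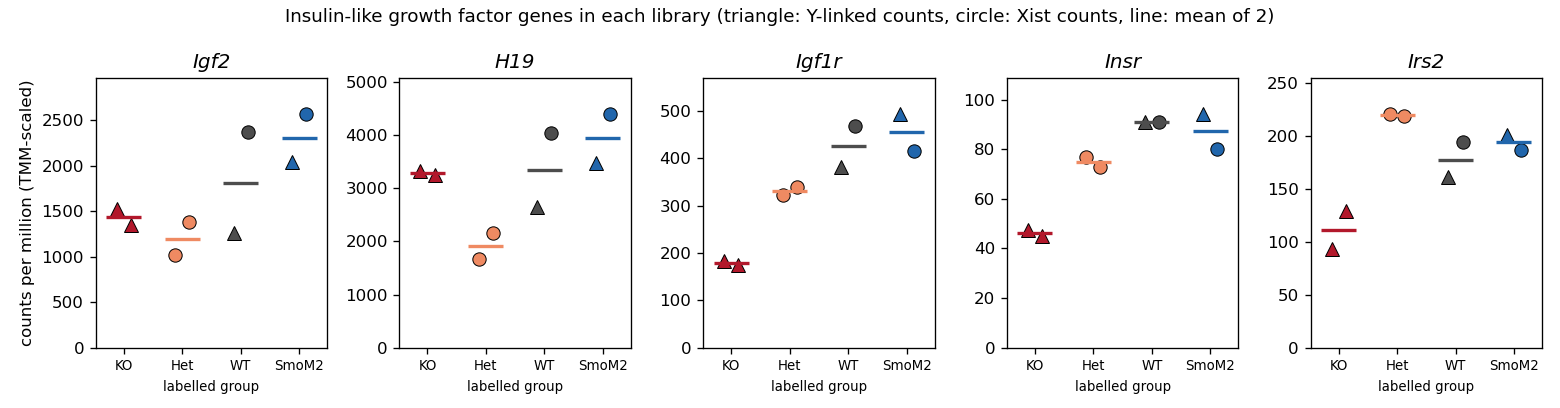
Level of Igf2, H19, Igf1r, Insr and Irs2 in CPM of the TMM-scaled library (vertical axes from 0) in each library of the 4 labelled groups; triangles are libraries with Y-linked counts, circles libraries with Xist counts, lines means of 2. Igf1r lies at 175 to 182 CPM in the KO-labelled libraries and at 323 CPM or more in the others, while Igf2 spreads from 1255 to 2364 CPM within the WT-labelled pair.

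The mTOR list was added because loss of a single copy of Tsc1 is known to prolong nephron progenitors. Of its 10 genes, 1 rose and 1 fell in Het- against WT-labelled libraries, near the share of all tested genes called there, 25.3%. In KO- against WT-labelled libraries 1 rose and 1 fell as well, near the 23% of all tested genes called. Rictor, a subunit of mTOR complex 2, changed by -0.83 (SE 0.13, edgeR adjusted p 0.00150), and by -0.31 with GC and length trends removed (edgeR adjusted p 0.0821). Mlst8, a subunit of both complexes, changed by 0.54 (SE 0.13, edgeR adjusted p 0.0142). The same 2 genes were called in Het- against WT-labelled libraries, at -0.50 and 0.59, and neither was called there without Het-labelled replicate 1, Het-labelled replicate 2 or WT-labelled replicate 2. With the stress covariate both lost the call there (edgeR adjusted p 0.528 for Rictor and 0.162 for Mlst8), and with GC and length trends removed Rictor was at -0.16 (edgeR adjusted p 0.314). Mlst8 in KO- against WT-labelled libraries was at 0.40 without WT-labelled replicate 2 (edgeR adjusted p 0.124). Tbc1d7, a partner of TSC1 and TSC2, was higher in KO- than in Het-labelled libraries by 1.07 (SE 0.22, edgeR adjusted p 0.0168), and without Het-labelled replicate 1 by 1.17 (edgeR adjusted p 0.105). No gene of the list was called in SmoM2- against WT-labelled libraries, where only 0.223% of all tested genes were called. In KO- against SmoM2-labelled libraries 2 of the 10 rose and 2 fell, where 32.5% of all tested genes were called. Tsc1 itself changed there by -0.59 (edgeR adjusted p 0.0356), and by -0.13 with the length trend removed. Het- against SmoM2-labelled libraries had 1 higher and 1 lower, with 33.7% of all tested genes called.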

How the data were processed

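RNA of sorted nephron progenitors was measured in 8 libraries. One table deposited by the authors holds raw counts, RPKM values and a length for each gene symbol, per the file headers. Reads were aligned with STAR to mm10 and counted with featureCounts of Subread, per the submitters' processing notes, which give no versions. The annotation and strand setting are not given in the sources used here. Tests used the counts as deposited. The deposited RPKM values served to recover the library totals for an alternative scaling, of which the listed counts were 81.1% to 83.3%. GENCODE M21 (GRCm38) gave gene positions and transcript sequences.

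edgeR 4.0.16 in R 4.3.3 was run on all 8 libraries in a single quasi-likelihood fit with 4 group means and TMM scaling. filterByExpr left 13459 genes, 5 of the 7 members among them. Tests were two-sided, p-values were adjusted by Benjamini-Hochberg over all tested genes, and the threshold was 0.05. Log2 CPM used a prior count of 2. The SE of a change is its size divided by the root of its F statistic, and 95% intervals use the degrees of freedom of that test. With 2 libraries against 2, the smallest exact two-sided permutation p is 0.333, so none is reported. The fit was tested on simulated data.

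The members and lists were chosen with earlier results of these data known. Named are all members, Smo, from each pathway list and comparison at most the 3 called genes with the largest change, always Igf2, H19 and Igf1r, and the 3 genes nearest to each tested member in pattern, of which 1 is not reported here. Genes of marker lists are named only as checks. The lists held 14 genes of let-7 maturation or partners of LIN28, 21 other let-7 targets, 12 of the insulin-like growth factor system and 10 of mTOR. Endothelial markers summed to 35.1 to 44.3 CPM in the KO-labelled and 11.5 to 21.8 CPM in the other libraries. Most of the KO-labelled sum was Cldn5 (22.1 and 17.0 CPM) and Egfl7 (17.3 and 15.7 CPM), with Pecam1, Cdh5 and Kdr at 0.664 CPM or less. Erythroid markers summed to 14.2 to 45.8 CPM (KO), 20.4 to 26.6 CPM (Het) and 3.00 to 7.98 CPM (WT and SmoM2). Of 4 tested, 3 (KO) and 2 (Het) were called higher than in WT-labelled libraries, against 11.6% (KO) and 13.1% (Het) of all tested genes. Immune markers summed to 47.7 to 48.7 CPM (Het) and 14.2 to 33.6 CPM in the others. Most of the Het-labelled sum was Cd68 (44.8 and 41.3 CPM). The median log2 change of the 4 tested immune genes in Het- against WT-labelled libraries was -0.77. Alternatives covered scaling, filter, tool (DESeq2 1.42.0), the groups fitted, a replicate block, length and GC trends (mgcv), stress and sex covariates, and each library left out.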

Additional observations from a re-analysis of the deposited data

How the results depend on the processing

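The 5 tested genes gave 30 changes, each recomputed under 19 alternatives, 570 values in all. Of these 497 kept their sign and their side of the threshold, 33 lost the call, 4 gained one, and 35 changed sign between values that passed no threshold, which lay between -0.56 and 0.73. A single called value changed sign: Igf2bp1 in KO- against SmoM2-labelled libraries was 0.0049 with the length trend removed. Most of the 30 changes were uncalled in the reported fit, so most kept values were uncalled ones that stayed so. Of 19 alternatives, Igf2bp1 in KO-labelled libraries kept its call in 13 against WT-, 12 against Het- and 12 against SmoM2-labelled libraries. Igf2bp2 kept it in 14 (Het against WT), 14 (KO against Het) and 15 (Het against SmoM2). The GC and length correction and all alternatives for the pathway lists were chosen after seeing the data.

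The number of members called in KO- against WT-labelled libraries, 1, was 0 with the length trend removed, with the stress or sex covariate and with GC and length trends removed. In Het- against WT-labelled libraries it went from 1 to 0 with the stress covariate. In KO- against Het-labelled libraries it went from 2 to 1 with the length trend or GC and length trends removed, and to 0 with the stress or sex covariate. In KO- against SmoM2-labelled libraries it went from 1 to 0 with the totals that RPKM implies, the length trend or GC and length trends removed, and the sex covariate. In Het- against SmoM2-labelled libraries it went from 1 to 0 with the stress covariate. Over the 4 groups it went from 2 to 1 with the length trend removed, the stress covariate and GC and length trends removed, and to 0 with the sex covariate. A covariate also takes 1 of the 4 residual degrees of freedom. The stress covariate follows the groups: it was higher in both Het-labelled libraries than in all others, and in both KO- than in both WT-labelled libraries. A call lost with it does not tell stress and group apart. The cause of each change was not tested.

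With 1 library left out, the lone library is assumed to vary like the other groups. The count then ran from 0 to 1 in KO- against WT-labelled, Het- against WT-labelled, KO- against SmoM2-labelled and Het- against SmoM2-labelled libraries, from 0 to 3 in KO- against Het-labelled libraries and over the 4 groups, and stayed at 0 in SmoM2- against WT-labelled libraries.

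With the replicate number as a block the counts were 1, 1, 0, 2, 1 and 1 in the 6 comparisons and 2 over the 4 groups, as without it. Deviations of same-numbered libraries correlated at 0.39 between the WT- and SmoM2-labelled groups and at -0.06 to 0.10 between the others. The numbers thus do not pair the libraries across all groups. In the WT- and SmoM2-labelled groups replicate 1 was male and replicate 2 female in pattern. What the same-numbered libraries of these groups share was not tested.

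Over all genes, SmoM2- against WT-labelled libraries gave 30 calls and 54 with the replicate block. With the stress covariate Het- against WT-labelled libraries gave 174 calls in place of 3403, and KO- against WT-labelled libraries 1511 in place of 3100. KO- against Het-labelled libraries gave 1269, 446 with the stress covariate and 36 without Het-labelled replicate 1. Depth limits Trim71, with 25 counts in KO-labelled replicate 1, and the LIN28 genes.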
